A study of Mus musculus with 7 samples.

Results

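Genes of the fibroblast growth factor (FGF) response, 9 of the 21887 protein-coding genes examined, were followed through ATAC-seq peak lists of progenitors from the embryonic mouse forebrain. They are the receptor genes Fgfr1, Fgfr2 and Fgfr3, the Ets transcription factor genes Etv1, Etv4 and Etv5, and the inhibitor genes Spry1, Spry2 and Spry4. The genes were taken by name and no measured value entered the rule, but earlier results of these data were known when they were chosen. For each gene the locus was the annotated gene with 50 kb added at both ends, on mouse build GRCm38, and no 2 of the 9 loci overlapped. ATAC-seq marks open DNA by the places where a transposase inserts sequencing adapters. From the dorsal telencephalon of the strain CD-1 at stage E14.5, neural progenitors had been isolated by FACS for CD15, a surface carbohydrate of neural stem and progenitor cells. The 4 knockout libraries carry the genotype L3mbtl3 -/-, which removes an MBT-domain chromatin protein, and the 3 control libraries are wild-type. The labels mention heterozygous animals too, but no library here is labelled as one. The sources used here do not give how the allele was made, in which cells the gene is lost, or whether a library holds 1 embryo or a pool. Nothing says that the libraries of a genotype came from separate embryos, so p-values measure the spread between these libraries, which may be technical.

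FGF ligands bind receptor tyrosine kinases at the cell surface, and the activated receptors signal through RAS and the kinase ERK. Etv1, Etv4 and Etv5 form the PEA3 group of Ets factors, whose transcription is commonly raised by this signal, and Sprouty proteins are feedback inhibitors induced by it. In the developing telencephalon FGF signalling from the rostral patterning centre shapes the areas of the cortex, and FGF receptors help to keep radial glia as progenitors.

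The 4 knockout lists held 9827, 7111, 3366 and 17362 peaks and the 3 wild-type lists 7448, 11394 and 6458, so that knockout library 3 had the shortest list and knockout library 4 the longest. How many reads lie behind each list is unknown. Peaks of dorsal telencephalon progenitor markers were present at 14 of 15 loci, 10 to 44 per knockout library and 13 to 21 per wild-type library in all. Every library called 4 of the 15, among them Sox9 with 1 peak each, and none called Hes1. Gli3 held the most, with 3, 4, 4 and 14 in the knockout and 6, 5 and 4 in the wild-type libraries. Sox2 had peaks in knockout library 4 alone, Lhx2 in knockout library 1 alone, Hes5 in knockout libraries 3 and 4, and Nes in knockout library 4 and wild-type library 2. Intermediate progenitor and neuron markers had a peak at 6 of 7 loci (5 to 11 in all per knockout and 3 to 8 per wild-type library). Tbr1 and Fezf2 were called in every library, Neurod1 and Tubb3 in knockout library 4 alone, and Eomes was at 0. Of markers of other cells, 3 of 7 ventral loci had a peak in some library. In all these were 2 to 6 per knockout and 2 to 4 per wild-type library, with Dlx5, Gsx2, Nkx2-1 and Gad1 at 0. Gad2 held most of them and was called in every library, with 3, 2, 3 and 4 in the knockout and 2, 4 and 3 in the wild-type libraries. Dlx1 and Dlx2 had a peak in knockout library 4 alone. Of all protein-coding loci 69.2% had a peak in some library. The counts were 1 of 4 for oligodendrocyte loci (0 to 1 and 0 to 1), 5 of 5 for endothelial loci (0 to 6 and 0 to 1), 4 of 5 for microglia and blood loci (0 to 4 and 2 to 3) and 1 of 4 for meningeal loci (1 to 2 and 1 to 1). At 4 of the 5 endothelial loci the peaks came from knockout library 4 alone, the longest list, in which 60.0% of all loci had a peak. The part of these other cells in the results was not tested. Inside the L3mbtl3 gene itself, knockout library 4 and wild-type library 1 each had 1 peak and the other libraries none, which does not check the deletion.

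The 9 loci together held 64 of the 62966 deposited peaks, and 3 genes, Etv1, Etv5 and Spry2, held 49 of the 64. The sums were 9, 7, 4 and 20 peaks in knockout libraries 1 to 4, against 9, 10 and 5 in wild-type libraries 1 to 3. Knockout library 4 was the highest and knockout library 3 the lowest, the same order as their list lengths. Per 10000 peaks of its list, a library had 9.16, 9.84, 11.9 and 11.5 peaks in the 9 loci in the knockout, against 12.1, 8.78 and 7.74 in the wild type, and the 2 genotypes overlapped. At least 1 library called a peak in 7 of the 9 loci, where 69.2% of all protein-coding loci had one, and every library called one in 2 of the 9, Etv5 and Spry2, where the share of all loci was 6.9%. Etv4 and Spry1 had no peak in any library, as had 30.8% of all loci.

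**Figure D1:**
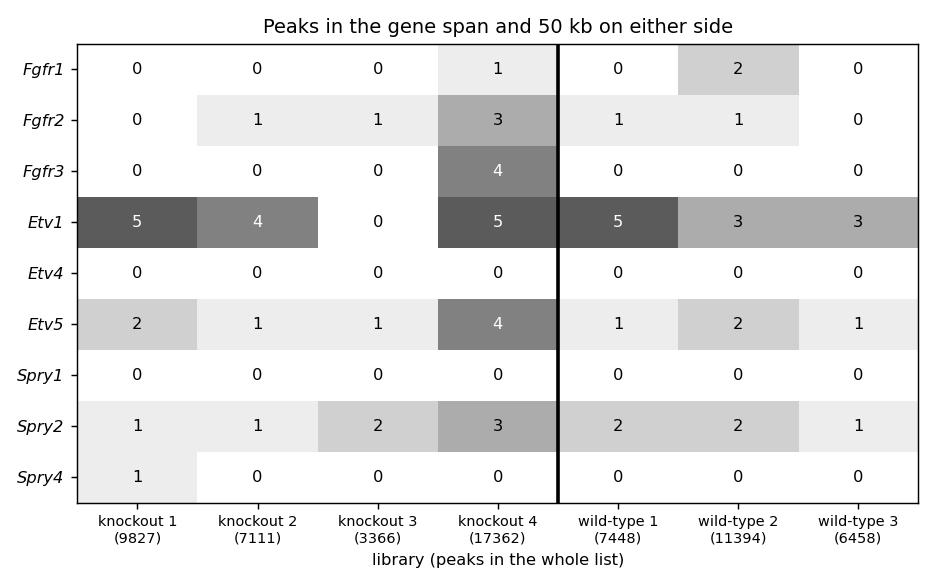
Number of peaks at each of the 9 loci (rows, gene with 50 kb added on both sides) in each library (columns, with the length of its whole list in parentheses), knockout libraries left of the black line and wild-type libraries right of it. Etv1 held most peaks, up to 5 per library, and had none in knockout library 3, while Etv4 and Spry1 had none in any library.

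The comparison of genotypes asks whether loss of L3mbtl3 goes with other open sites at these genes, and no locus passed its test. The number of peaks was compared with a two-sided exact permutation test over all 35 assignments of the genotype labels, whose smallest p is 0.0286, and adjusted by the Benjamini-Hochberg method over the 15153 loci with any peak. An adjusted p under 0.05 would thus have needed most of these loci to reach the smallest p, so the adjusted values could hardly call a single locus. Of the 7 members tested, 0 had an unadjusted p under 0.05, against 0.119% of all tested loci with knockout libraries higher and 0.211% with them lower, and the smallest p among the members was 0.714. In 0 of the 7 did the genotypes not overlap, against 0.132% of all tested loci with knockout higher and 0.211% with it lower. Of the 7 members with peaks, the mean was higher in knockout libraries for 5 and lower for 2, while 58.6% of all tested loci were higher and 37.8% lower. The median difference was 0.25 peaks over these 7 and 0.167 peaks over all tested loci. Several of these directions rest on knockout library 4, the longest list, while Fgfr1, Etv1 and Spry4 kept theirs without it. Without it 6 members still had a peak, of which 1 was higher (Spry4), 3 were lower (Fgfr1, Etv1 and Spry2) and 2 were equal (Fgfr2 and Etv5). Of all loci tested without it, 21.9% were higher and 58.2% lower. A p that misses the threshold here does not show that the genotypes were alike. In sorted cells taken as a bulk, fewer cells with a site open and less opening per cell cannot be told apart.

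Overlapping peaks of the 7 libraries were merged, which gave 25 regions in the 9 loci, and a region called in at least 3 libraries is termed recurrent here. Recurrent regions numbered 10 of the 25, where the share of all 25623 regions was 35.1%. They fell to 4 genes, with 5 at Etv1, 2 at Etv5, 2 at Spry2 and 1 at Fgfr2. A single library called 11 of the 25, where the share of all regions was 48.4%, and 8 of these 11 were peaks of knockout library 4. All 7 libraries called 1 of the 25, where the share of all regions was 5.06%. Of the 25 regions 11 lay inside a member gene and 3 within 1 kb of one of its ends. Shares in exons and introns were not analysed here.

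Among the receptors, Fgfr2 had a recurrent region and Fgfr1 and Fgfr3 did not. Fgfr2 encodes a receptor with splice forms of different ligand preference and spans chromosome 7, 130162451 to 130266808, on the minus strand. Its locus held 0, 1, 1 and 3 peaks in the knockout libraries, against 1, 1 and 0 in the wild-type libraries. Both genotypes included a library without a peak, and the highest value was that of the longest list. The means were 1.25 ± 1.26 in knockout and 0.667 ± 0.577 in wild-type libraries (SD, n = 4 and 3), a difference of 0.583 (exact permutation p = 0.857, adjusted p = 1). Without the shortest and the longest list the difference was −0.167.

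The recurrent region of Fgfr2 lay inside the gene, 50609 bp from its start (130215933 to 130216199), and no other protein-coding gene lay in the window. It was called in knockout libraries 2, 3 and 4 and in wild-type libraries 1 and 2, that is in 3 of 4 and 2 of 3. The peaks of all 5 libraries shared 50 bp. In their own lists these peaks stood at the 47.9th, 86.2nd and 28.3rd percentile of −log10 q in the 3 knockout libraries, against the 43.3rd and 35.4th in the 2 wild-type libraries. The highest rank was thus in the shortest list. Knockout library 4 had 2 further peaks beyond the end of the gene, 32531 and 44750 bp from it, that no other library called.

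Fgfr1, the receptor gene that is broadly expressed in neural progenitors, spans chromosome 8, 25518759 to 25575718. Its locus held 0, 0, 0 and 1 peaks in the knockout libraries, against 0, 2 and 0 in the wild-type libraries, so that all 3 peaks came from the 2 longest lists. Knockout library 4 had a peak inside the gene at 25537293 to 25537572 and wild-type library 2 had another at 25545053 to 25545169, which do not overlap. The other peak of wild-type library 2 lay in the neighbouring gene Letm2. The difference was −0.417 peaks (exact permutation p = 0.714, adjusted p = 1), and 0.25 without wild-type library 2.

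Fgfr3, whose product restrains growth in cartilage and which marks progenitors in caudal cortex, spans chromosome 5, 33721724 to 33737068, on the plus strand. Its locus held 0, 0, 0 and 4 peaks in the knockout libraries, against 0, 0 and 0 in the wild-type libraries. All 4 peaks thus came from the longest list and none lay in the gene. Of these, 2 were nearer to the neighbour Tacc3, and 1 lay 36 bp from an end of the neighbour Letm1. The fourth lay 23435 bp upstream of Fgfr3, at the 10.6th percentile of its list. The difference of 1 peak had an exact permutation p of 1 (adjusted p = 1), and without knockout library 4 both genotypes were at 0.

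Etv1 held most peaks of the 9 loci. It encodes an Ets factor that is also a marker of cortical layer 5 neurons and spans chromosome 12, 38780082 to 38870483, on the plus strand. The locus held 5, 4, 0 and 5 peaks in the knockout libraries, against 5, 3 and 3 in the wild-type libraries. Knockout library 3 stood at 0 and the other 6 libraries at 3 to 5, with the genotypes overlapping. The means were 3.5 ± 2.38 in knockout and 3.67 ± 1.15 in wild-type libraries (SD, n = 4 and 3), a difference of −0.167 that was far below the spread (exact permutation p = 1, adjusted p = 1). It was 1 without knockout library 3, 0.5 without wild-type library 1, and 84 bp as base pairs under peaks (687 bp in knockout and 603 bp in wild-type libraries), so that it has no stable direction. With a mean of 3.57 peaks per library the locus ranked at the 98.95th percentile of all protein-coding loci, where the median locus held 0.286. The locus spans 190.4 kb, and longer loci have room for more peaks. At 13.1 peaks per 100 kb over the 7 libraries it was followed by Spry2 at 11.4 and Etv5 at 7.58, with the other 6 between 0 and 3.47.

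The region nearest to the start of Etv1 (38778649 to 38779042) ended 1040 bp upstream of it. It was called in knockout libraries 1, 2 and 4 and in all 3 wild-type libraries, and the library without it was the one with the shortest list. Of the 1528 regions called in exactly 6 libraries, 63.4% were missed by that same library. The peaks stood at the 90.6th, 98.6th and 75.8th percentile of their lists in knockout libraries 1, 2 and 4, against the 83.6th, 76.0th and 84.2nd in wild-type libraries 1 to 3. Every caller thus had it in the upper part of its list, and the peaks of all 6 shared 63 bp. The authors' fold enrichment was 6.36, 8.43 and 5.22 in the knockout lists, against 5.75, 5.45 and 5.40 in the wild-type lists.

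A region inside Etv1, 8653 bp from its start (38788735 to 38788889), was called in 0 of 4 knockout and 3 of 3 wild-type libraries. It was the only one of the 25 regions to separate the genotypes. Of all regions 0.133% were called in no knockout and every wild-type library, which is 34 of 25623, and 0.109% the other way round. Of the 2593 regions called in exactly 3 libraries, 1.31% had the 3 wild-type ones. Fisher's exact test gave p = 0.0286, the smallest that 4 and 3 libraries allow, and adjusted p = 1. An unadjusted p under 0.05 was thus reached by 1 of the 25 member regions, against 0.242% of all regions, and by none after adjustment. The peaks stood at the 48.2nd, 43.7th and 53.5th percentile of the wild-type lists, near the middle of each, with folds of 4.60, 4.58 and 4.41, and shared 70 bp. The nearest peak of knockout libraries 1, 2 and 4 was 9693, 9988 and 9859 bp away, which is the upstream region, and that of knockout library 3 was 140244 bp away. With each list limited to its 3366 best peaks, 0 of 4 knockout and 1 of 3 wild-type libraries called it, and at −log10 q of at least 5 no library did.

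Further into Etv1, a region 54478 bp from the start (38834560 to 38834914) was called in knockout libraries 1 and 2 and in wild-type library 1. Its ranks were the 70.3rd and 59.96th percentile in the knockout lists, against the 19.4th in the wild-type list. The next recurrent region, 74355 bp from the start (38854437 to 38854571), was called in 3 of 4 knockout libraries and 1 of 3 wild-type libraries (Fisher's exact p = 0.486, adjusted p = 1). All 4 of its peaks ranked high, at the 72.6th, 77.1st and 84.7th percentile in knockout libraries 1, 2 and 4, against the 86.4th in wild-type library 1. Beyond the gene, a region 20891 bp past its end (38891374 to 38891811) was called in 3 of 4 knockout and 2 of 3 wild-type libraries. Its lowest rank was the 0.774th percentile, in wild-type library 3, a peak just inside that list. Another 2 regions inside the gene had 2 callers each, at 38843881 to 38844054 in knockout library 4 and wild-type library 2, and at 38860677 to 38861026 in knockout libraries 1 and 4.

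**Figure D2:**
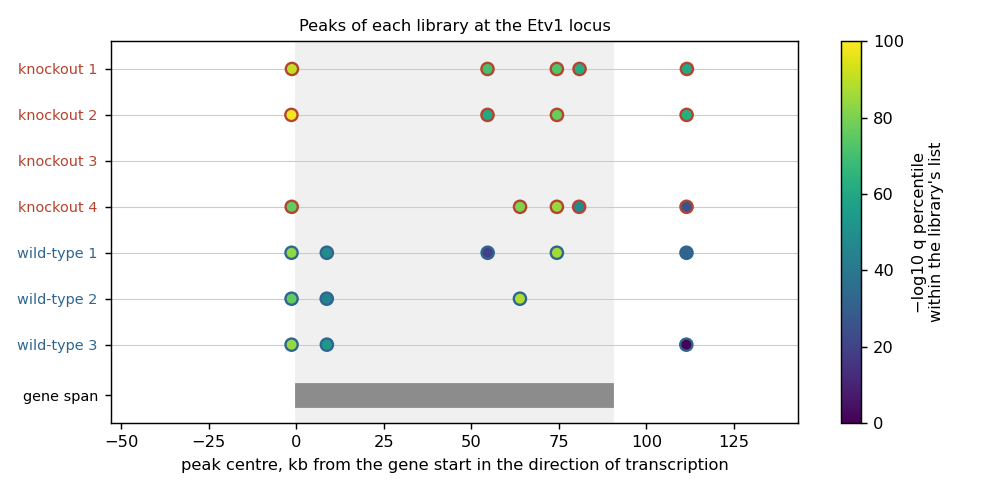
Peaks at the Etv1 locus in each library (rows, knockout above wild-type), by the distance of the peak centre from the gene start in kb, in the direction of transcription; fill colour gives the percentile of −log10 q within the library's own list and the grey bar the gene span. The points at 8.7 kb are absent from the 4 knockout rows and present in the 3 wild-type rows, and knockout library 3 has no point.

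Peaks went on past the Etv1 locus as defined. The next protein-coding gene on that side, Arl4a, lies 1162807 bp after the end of Etv1, and in this interval 10 further regions had Etv1 as their nearest gene, 7 of them recurrent. Of all 25623 regions 35.1% were recurrent and 5.06% were called in all 7 libraries. This search beyond 50 kb was added after the data were seen. All 7 libraries called a region 58514 bp past the end (38928997 to 38929266) and another 156766 bp past it (39027249 to 39027535), including knockout library 3, which called nothing nearer. A region 117399 bp past the end (38987882 to 38988150) was called in knockout libraries 1, 2 and 4 and in no wild-type library (Fisher's exact p = 0.143, adjusted p = 1), with peaks between the 63.3rd and 93.2nd percentile. The nearest gene is a matter of distance and does not say which gene a region acts on.

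By numbers of peaks per library, the loci most like Etv1 were those of Fign, with a summed absolute difference of 2 peaks over the 7 libraries, and of Fstl5 and Slc4a10, with 3 each. Fign held 5, 4, 0 and 5 peaks in the knockout libraries, against 5, 5 and 3 in the wild-type libraries. It shares with Etv1 the 0 in the shortest list. All loci share the libraries and the lengths of their lists.

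Etv5, an Ets factor gene that like Etv4 is widely used as a readout of FGF signalling, spans chromosome 16, 22381313 to 22439570, on the minus strand. Its locus held 2, 1, 1 and 4 peaks in the knockout libraries, against 1, 2 and 1 in the wild-type libraries. Every library had at least 1, and the value of 4 came from the longest list. The means were 2 ± 1.41 in knockout and 1.33 ± 0.577 in wild-type libraries (SD, n = 4 and 3), a difference of 0.667 (exact permutation p = 0.714, adjusted p = 1). Without knockout library 4 the difference was 0, with 1.33 peaks in both genotypes, and with lists of equal length it was 0.0833. With a mean of 1.71 peaks per library, Etv5 and Spry2 both ranked at the 94.2nd percentile of all loci.

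At the start of Etv5 a region (22439701 to 22439901) lay 131 bp upstream of the first base of the gene. It was called in knockout libraries 1 and 4 and in wild-type library 2, the 3 longest lists, and the 3 peaks shared 74 bp. Ranks were the 25.9th and 53.1st percentile in the knockout lists, against the 63.2nd in the wild-type list. The promoter table from RefSeq (GRCm38.p6) matched 6 of the 9 genes with 9 windows of 300 bases, each from 250 before to 50 after a start, and this was the only one of the 9 windows with a peak, where 19.7% of the 21263 windows of protein-coding genes had one in at least 1 library. Its 250 bases before the start (chr16:22439571-22439820, minus strand) are shown because an open region covers them in part. They read 5′ to 3′, with the 120 bases inside the region in capitals.
Etv5: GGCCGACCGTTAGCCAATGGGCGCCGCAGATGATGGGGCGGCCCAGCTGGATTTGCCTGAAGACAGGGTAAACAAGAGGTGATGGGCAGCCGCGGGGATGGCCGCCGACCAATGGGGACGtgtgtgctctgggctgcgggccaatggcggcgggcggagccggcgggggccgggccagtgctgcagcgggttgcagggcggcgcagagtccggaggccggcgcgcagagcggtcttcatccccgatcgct

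The capitals hold 2 matches to the E-box CAGNTG, the motif of proneural bHLH factors, which are CAGATG at bases 27 to 32 and CAGCTG at bases 44 to 49, counted from the first base printed. On either strand 48.6% of all windows hold at least 1 match to CAGNTG, so a match is common. CCAAT, the box bound by the factor NF-Y, was searched after the letters were seen and occurs at bases 14 to 18 and 109 to 113 in the capitals and at 141 to 145 outside them. It is present in 38.2% of all windows and 54.7% of the 4192 windows with a peak. The window of Etv5 had no match to the Ets core CCGGAA, which 18.7% of all windows hold, nor to the AP-1 motif TGANTCA (6.99%), the homeodomain motif TAATTA (4.53%), the nuclear factor I core TTGGCA (13.1%) or the RFX core GTTGCC (12.6%). Over its 300 bases G and C made up 74%, against a median of 56.3% in all windows and 60.3% in those with a peak. These matches describe the letters and do not show binding.

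Inside Etv5, a region 10499 bp from the start (22428811 to 22429071) was called in all 4 knockout libraries and in wild-type libraries 1 and 2 (Fisher's exact p = 0.429, adjusted p = 1). It was called even in the shortest list, at the 23.3rd percentile. The peaks joined here did not all overlap, since that of knockout library 1 ended 67 bp before that of knockout library 2 began. When only peaks over 50% of its length were counted, 1 of 4 knockout and 1 of 3 wild-type libraries called it, and the same numbers held with lists of equal length. Farther in, 2 short regions carried the highest folds of the 9 loci. At 22392662 to 22392769, knockout library 4 had a peak with a fold of 13.6 (99.8th percentile of −log10 q) and wild-type library 3 one with a fold of 6.95 (97.8th percentile). At 22386757 to 22386850, knockout library 4 alone had a peak with a fold of 11.4 (99.7th percentile). High rank and recurrence thus did not go together at Etv5.

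Etv4, the founding member of the PEA3 group, spans chromosome 11, 101769747 to 101785310, with the helicase gene Dhx8 lying 2388 bp away on 1 side. Its locus of 115.6 kb was without a peak in all 7 libraries, and so was the window with 100 kb on either side. The lists hold what passed the caller's threshold, so a locus without peaks is not shown to be closed.

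**Figure D3:**
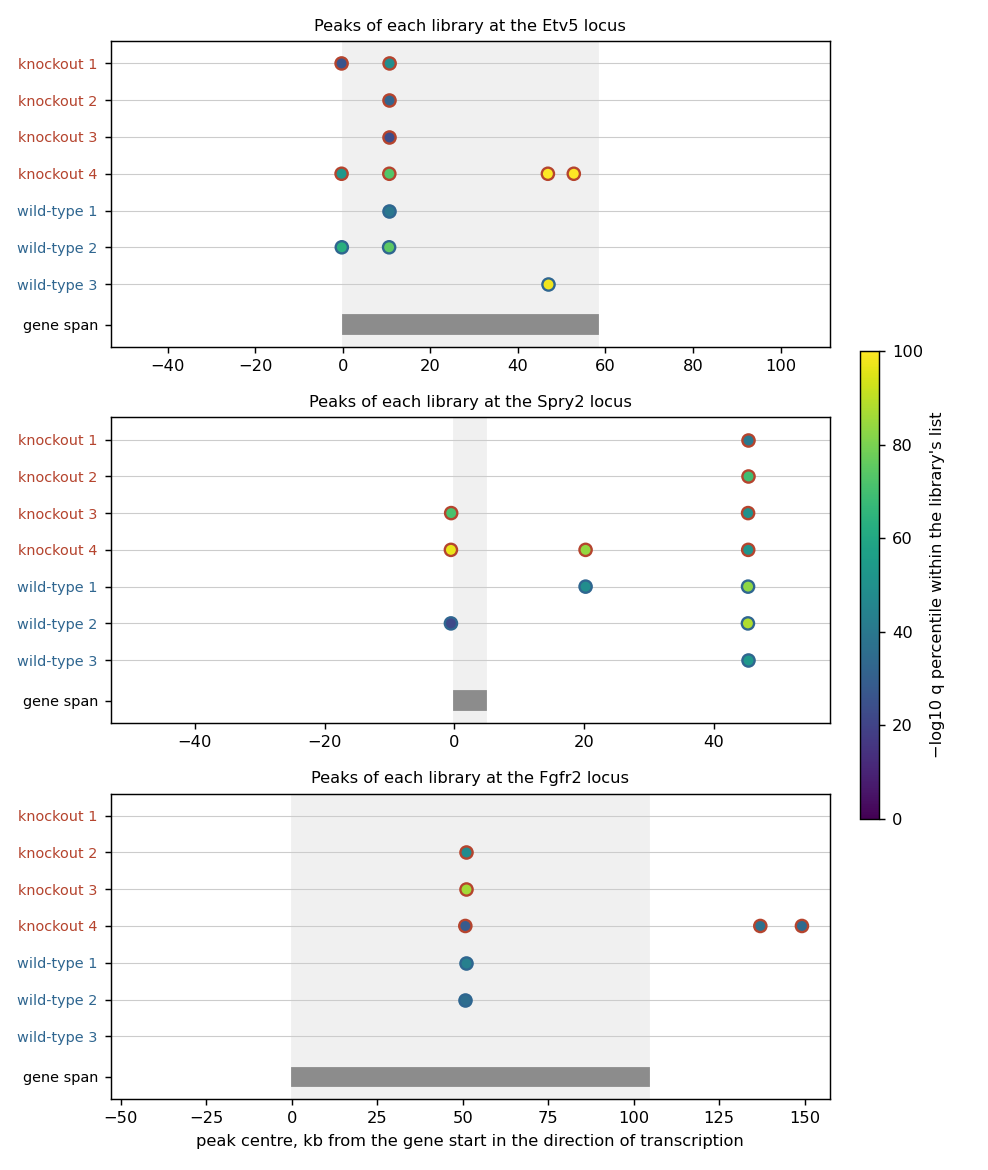
Peaks at the loci of Etv5, Spry2 and Fgfr2 in each library (rows, knockout above wild-type), by the distance of the peak centre from the gene start in kb, in the direction of transcription, with fill colour for the percentile of −log10 q within the library's list. The region about 45 kb past the start of Spry2 has a point in all 7 rows, and the highest percentiles at Etv5 lie near 47 and 53 kb in rows of 1 or 2 libraries.

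Of the Sprouty genes, Spry2 had peaks in every library. Spry2 encodes an inhibitor of receptor tyrosine kinase signalling upstream of ERK and spans chromosome 14, 105891947 to 105896819, on the minus strand. Its locus held 1, 1, 2 and 3 peaks in the knockout libraries, against 2, 2 and 1 in the wild-type libraries. The genotypes overlapped and the shortest list was not the lowest. The means were 1.75 ± 0.957 in knockout and 1.67 ± 0.577 in wild-type libraries (SD, n = 4 and 3), a difference of 0.0833 (exact permutation p = 1, adjusted p = 1). The difference was −0.333 without knockout library 4 and −0.25 without wild-type library 3.

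The region at 105851442 to 105851685, 40262 bp past the end of Spry2, was the only one in the 9 loci called in all 7 libraries. Its peaks stood at the 40.4th, 69.5th, 50.4th and 52.0th percentile in knockout libraries 1 to 4, against the 83.0th, 88.0th and 53.3rd in wild-type libraries 1 to 3. The 2 highest ranks were in wild-type libraries, and the remaining wild-type value lay within the range of the knockout values. Folds were 4.51, 5.26, 4.37 and 4.53 in the knockout lists, against 5.69, 6.13 and 4.52 in the wild-type lists, and all 7 peaks shared 76 bp. With lists of equal length 2 of 4 knockout and 3 of 3 wild-type libraries called it, and with only peaks over 50% of its length 3 of 4 and 1 of 3 did. None of its peaks reached a −log10 q of 5. Folds of lists called separately are not on 1 scale, so no test was made. The nearest other gene, Trim52, was 254513 bp away.

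At the start of Spry2, a region 461 bp upstream (105897280 to 105897449) was called in knockout libraries 3 and 4 and in wild-type library 2. It ranked at the 71.4th and 96.6th percentile in the knockout lists, against the 22.1st in the wild-type list. It lay 211 bp outside the promoter window, which itself had no peak. That window holds 1 match to the Ets core CCGGAA, 33 bases after the start, and 34.5% of all windows with a peak hold this core, against 18.7% of all windows. Another region, 15259 bp past the end (105876532 to 105876688), had peaks in knockout library 4 and wild-type library 1. As at Etv1, regions went on into the space beyond 50 kb, where 9 more had Spry2 as their nearest gene. Of these 3 were recurrent, where the share of all regions was 35.1%. All 7 libraries called that at 105631149 to 105631859, 260088 bp past the end. All 4 knockout and 2 of 3 wild-type libraries called that at 105799337 to 105799633, 92314 bp past it (Fisher's exact p = 0.429, adjusted p = 1).

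Spry1 and Spry4 showed little. Spry1, which encodes an inhibitor known from kidney development, spans chromosome 3, 37639947 to 37644599, and its locus of 104.7 kb held 0 peaks in all 7 libraries. Spry4 spans chromosome 18, 38586247 to 38601347, and its locus held 1, 0, 0 and 0 peaks in the knockout libraries, against 0, 0 and 0 in the wild-type libraries. That peak (38601343 to 38601448) crossed the upper end of Spry4 and ended 169 bp before the neighbour Arhgap26, so that either gene may be the one concerned. Its rank was the 77.4th percentile.

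Counted at gene ends alone, 3 of the 9 genes had an end with a peak at most 1 kb away in at least 1 library, where the share of all protein-coding genes was 23.6%, and 2 of the 9, Etv5 and Spry2, had one in at least 3 libraries, where the share was 9.4%. Etv5 and Spry2 were each called at an end in 2 of 4 knockout and 1 of 3 wild-type libraries, and Spry4 in 1 of 4 and 0 of 3. The callers differed, with knockout libraries 1 and 4 at Etv5, 3 and 4 at Spry2 and 1 at Spry4.

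Calling was more frequent in the knockout for 7 of the 10 recurrent regions, more frequent in the wild type for 2, and equal for 1, and over all 9000 recurrent regions the shares were 45.8%, 39.8% and 14.4%. Without knockout library 4 the 10 regions divided into 3, 2 and 5, and all recurrent regions into 19.6%, 37.7% and 42.7%. With any 1 library left out, between 2 and 5 of the 10 were called more often in the knockout. Among the 11 recurrent regions beyond 50 kb, which fell to Etv1, Spry2 and Fgfr2, 0 were called in every library of 1 genotype and none of the other, and 3 were called in all 7 libraries. Of all 9000 recurrent regions, 62 separated the genotypes in this way and 1296 were called in all 7 libraries. All 11 lay on the downstream side of their gene, where there was more room before the next gene, 1162807 bp against 145842 bp upstream at Etv1, 582648 against 209378 bp at Spry2 and 526712 against 124684 bp at Fgfr2. A region counted only if it lay more than 50 kb away and had the member as its nearest gene. The space that could hold one was thus far smaller upstream than these gaps, so the side was largely set by the search rule. The region of Fgfr2 among them lay 70064 bp past its end (130092065 to 130092387) and was called in 2 of 4 knockout and 1 of 3 wild-type libraries.

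**Figure D4:**
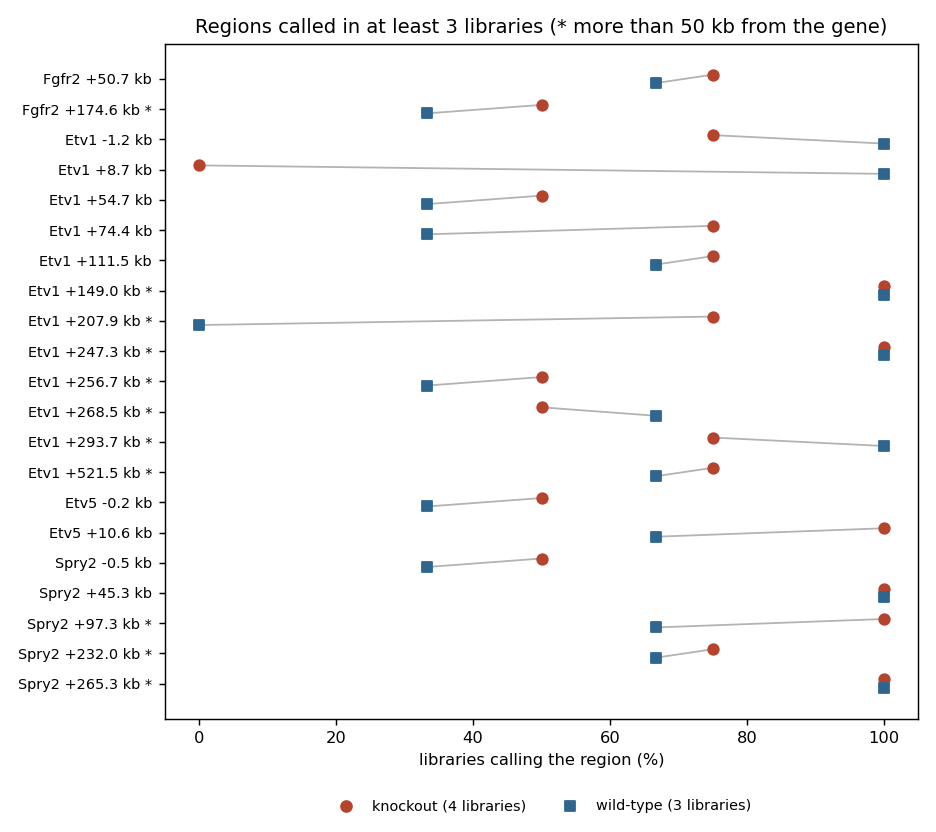
Share of knockout libraries (circles, of 4) and wild-type libraries (squares, of 3) that called each recurrent region, named by its gene and the distance of its centre from the gene start in kb, negative upstream; an asterisk marks regions more than 50 kb from the gene. The region of Etv1 at +8.7 kb stands at 0% of knockout and 100% of wild-type libraries, and that at +207.9 kb at 75% and 0%.

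The peaks of the 9 loci were of ordinary strength for these lists. Their median width was 139 bp, against 163 bp for all peaks, and their median fold was 4.91. Above the middle of their own list stood 39 of the 64 peaks. A −log10 q of at least 5 was reached by 6 of the 64 peaks (9.38%), against 9.98% of all deposited peaks. Of these 6, 5 were among the 40 knockout peaks and 1 among the 24 wild-type peaks, and 3 were from knockout library 4. They lay at Etv5 (3 peaks), at the upstream region of Etv1 (2) and at the start of Spry2 (1). The median percentile per library was 62.2, 63.2, 60.9 and 56.7 in the knockout libraries, against 48.2, 60.9 and 53.5 in the wild-type libraries, and the genotypes overlapped.

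**Figure D5:**
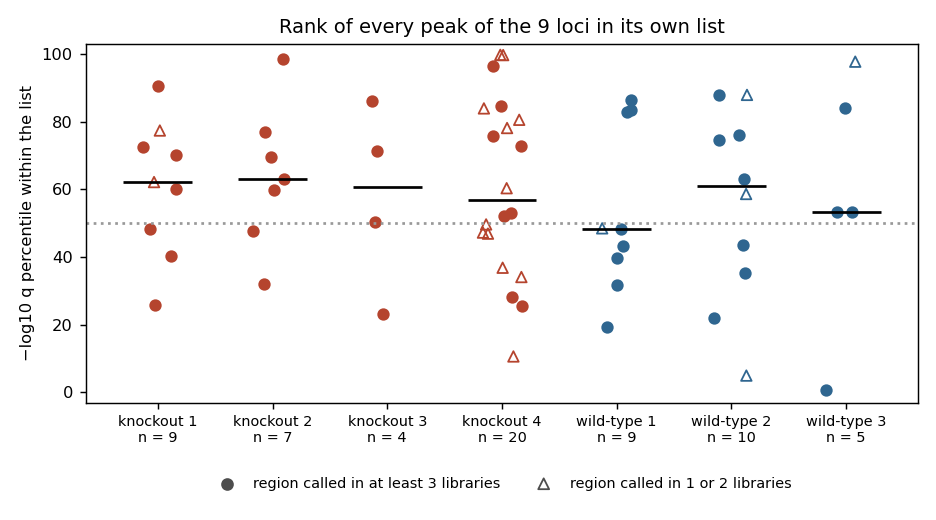
Percentile of −log10 q of every peak of the 9 loci within its own library's list, by library, knockout left of wild-type; filled circles are peaks in recurrent regions, open triangles peaks in regions called in 1 or 2 libraries, bars medians, and the dotted line the middle of a list. Medians run from 56.7 to 63.2 in knockout libraries and from 48.2 to 60.9 in wild-type libraries.

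The rest of the pathway showed the same absence of calls between genotypes. Of 66 other genes, 53 (80.3%) had a peak in their locus in at least 1 library, against 69.2% of all loci, and 0 of them passed with adjusted p-values or had an unadjusted exact permutation p under 0.05 in either direction. The sums were 10 to 82 peaks per knockout library and 26 to 44 per wild-type library, with the lowest in the shortest list and the highest in the longest. A peak was found at 11 of 18 ligand loci, 9 of 11 receptor and co-receptor loci, 18 of 19 adaptor and RAS-ERK loci, 8 of 11 inhibitor loci and 7 of 7 loci of other Ets factors. The median over the 66 genes was 0.357 peaks per library, against 0.286 over all loci, and the median difference was 0.

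Called in every library were 3 of the 66 genes, where the share of all loci was 6.9%. They were Rasa1, which encodes a brake on RAS, Sdc2, a cell-surface heparan sulphate proteoglycan, and Erf, an Ets repressor exported from the nucleus by ERK. Rasa1 held most peaks of the 66, with 5, 3, 1 and 3 in the knockout libraries, against 2, 5 and 1 in the wild-type libraries. Gab1, a docking protein of receptor tyrosine kinases, followed with 1, 3, 1 and 5 in the knockout libraries, against 0, 3 and 0 in the wild-type libraries (exact permutation p = 0.314, adjusted p = 1). Ets1 came next with 1, 2, 0 and 5, against 0, 3 and 1. In each of the 3 the genotypes overlapped.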

How the data were processed

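Library preparation used a Nextera kit, per the labels' protocols. Among the tools in the submitters' processing notes are the peak caller MACS2, the aligner Bowtie2 2.3.5.1 and SAMtools 1.9, with the build GRCm38. Caller settings and any correction for the transposase offset were not given in the sources used here. Each of the 7 libraries has its own deposited broad peak list without read counts, so depth is unknown and no counting interval was set. The deposited fold is a ratio over the caller's background. The deposited −log10 p served only to order peaks of equal −log10 q when lists were cut to equal length. The deposited −log10 q was at least 1.30 to 1.32 in the 7 lists and served only for ranks and filters within a list, as did the fold. The deposited score was not used.

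Coordinates are counted from 1. Peaks were merged where they overlapped by at least 1 bp. Gene spans came from RefSeq for GRCm38.p6, and strands and starts from its promoter table. Loci were compared by exact permutation and regions by Fisher's exact test, both adjusted over all features. All genes and recurrent regions of the 9 loci are named. Other pathway genes are named where every library called them, where genotypes did not overlap, or as the 3 with most peaks. The members and lists were chosen with earlier results of these data known. Alternatives were other windows, thresholds, equal lists, units, merging, left-out libraries and pairing. Same-numbered libraries were not treated as pairs in the main tests. Python 3.11.15, pandas 2.3.3, numpy 2.4.6 and scipy 1.17.1 were used, and both tests were checked on small cases with a known answer. The permutation test was also run on simulated loci with a large planted change and more peaks than most loci here hold. That run does not show what the test can find at the counts of these data.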

Additional observations from a re-analysis of the deposited data

Results flagged for a closer look

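In 3 of the 12 sets of knockout values examined, 1 library stood far from the other 3: knockout library 4 with 4 peaks at Fgfr3, where the others had 0, knockout library 4 with 1 peak at Fgfr1, where the others had 0, and knockout library 1 with 1 peak at Spry4, where the others had 0. Of the 12 sets 2 were constant and could not be flagged. Chance flags about 1 in 20 groups, and with counts this small a single peak is enough. Knockout library 4 had the longest list.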

How the results depend on the processing

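No member locus and no member region was called after adjustment under any setting run, and 0 member loci had an unadjusted exact permutation p under 0.05. With libraries left out or in replicate blocks, the permutation test could not give a p under 0.05, so those settings could not have called a locus. In the other settings a call after adjustment would have needed most features tested to reach the smallest p. Of 264 alternative values for single loci and regions, 194 kept their direction or stayed at 0, 20 reversed, 47 became 0 and 3 moved away from 0. Those that stayed at 0, as at Etv4 and Spry1, have no direction and say nothing of stability. The cause of these changes was not tested, except that stricter lists hold fewer peaks by construction. The number of recurrent regions, 10, became 5 where peaks had to cover 50% of a region, 0 at −log10 q of at least 5 and 3 with lists of equal length, and was 7 to 9 with 1 library left out. The 1 region separating the genotypes became 0 at −log10 q of at least 5 and 0 with equal lists. Leaving out 1 library cannot end such a separation, so its count of 1 there says nothing of stability, and its exact Fisher p was then 0.0667 or 0.1. Over all regions the number that separate, 62, became 3 and 41 under the same stricter settings and 117 to 246 with 1 library left out.

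The smallest exact permutation p of any member locus over these settings was 0.171, at Etv5 per 10000 peaks of the list (2.18 in knockout and 1.55 in wild-type libraries; adjusted p = 1). The knockout minus wild-type difference in peaks at Etv1 turned to 0.5 at −log10 q of at least 5 and to 84 bp as base pairs under peaks, and ran from −0.667 to 1 with 1 library left out. With 1 library left out it ran from −0.75 to 0.25 at Fgfr1 and from −0.333 to 0.333 at Spry2. Without the shortest and the longest list, a setting chosen after seeing the data, it was −0.167 at Fgfr2, 0.833 at Etv1 and −0.667 at Spry2. For the share of libraries calling a region, knockout minus wild-type in percentage points, the 50% rule gave 25 at Etv1 38778649, −8.33 at Etv5 22428811 and −8.33 at Etv5 22439701. At −log10 q of at least 5 the first of these was 50, and with equal lists Etv5 22428811 was −8.33. Leaving out 1 library gave −25 to 33.3 at Fgfr2 130215933 and −25 to 33.3 at Etv1 38891374. Without the shortest and the longest list the values were −16.7 at Fgfr2 130215933 and −33.3 at Spry2 105897280.

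With the number in the labels as a replicate block, 0 loci were called, but sign changes of so few pairs cannot give a p under 0.05. The block has no place for knockout library 4, and the difference at Spry2, −0.333, was the same as with only that library left out. Whether the numbers mark pairs is not known from the labels. Deviations of same-numbered libraries correlated at 0.0114, 0.0312 and 0.115 over the regions, not all above the 0.1 asked for to treat them as pairs. Knockout libraries 2 and 3 correlated most with the wild-type library of their own number, and knockout library 1 more with wild-type library 2, at 0.0462. Unknown read depth, few peaks per locus and unequal lists limit what 4 and 3 libraries can show, and a missing peak may lie just under the threshold.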
